A study of Homo sapiens with 12 samples.

Results

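The 9 genes described here are FOXO1, FOXO3 and FOXO4, which encode forkhead transcription factors, and CCNG2, PIK3IP1, TXNIP, SESN1, SESN3 and BCL6, antiproliferative genes linked to FOXO factors. They were taken by name, by no threshold on measured values but with earlier results of these data known, from a table of raw read counts for 55882 gene symbols. Of the 9, 8 were among the 14799 genes with enough counts to be tested, and SESN3 was not. The cells were T47D, an established human breast cancer line with estrogen receptor, labelled as epithelial cells. Control cells, labelled WT, and cells with ectopic HOXB13, a homeobox transcription factor, were each given ethanol vehicle or 2 nM estradiol for 24 h. All 4 groups had first spent 72 h in phenol-free medium with 10% charcoal-stripped serum, and each group had 3 libraries. The labels do not state the vector or promoter behind HOXB13, whether the control cells carried an empty vector, whether the HOXB13 cells are 1 clone, or whether the replicates were separate cultures. Spread between libraries, all that a p-value measures here, may thus be partly technical.

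FOXO factors are held in the cytoplasm when AKT, a kinase downstream of growth factor receptors and PI3K, phosphorylates them. In starved or resting cells they enter the nucleus and switch on genes that slow the cell cycle, limit growth signalling and resist oxidative stress. In estrogen receptor positive breast cancer cells, estradiol is a mitogen, so this gene group stands opposite to the proliferative program. Transcript counts report the RNA of these genes and carry no measure of FOXO protein, its phosphorylation or its place in the cell.

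The libraries held 17679824 to 21385996 counts, with 18556 to 19337 symbols detected. HOXB13 checked the genotypes, with 92 to 112 counts in each HOXB13 library and 0 to 2 in each control library. Luminal markers were high, with KRT8 at 6653 to 11673 CPM, counts scaled to a common library size, and GATA3 at 1120 to 1764, while KRT5 did not exceed 0.108. The 15 non-epithelial markers summed to 81.9 to 94.6 CPM in control vehicle, 90.6 to 97.2 in control estradiol, 87.7 to 99.5 in HOXB13 vehicle and 95.7 to 104 in HOXB13 estradiol libraries. COL1A1 and ACTA2 made up most of these sums, CDH5 had no count and PTPRC stayed at or below 0.211 CPM. The libraries numbered 2 stood apart from the others on the second principal component, which held 17.8% of the variance.

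The promoters of the members are shown because forkhead sites are the DNA element through which FOXO factors act. RefSeq sequences (GRCh38.p14) gave 17 windows for the 9 genes, each from 250 bases before to 50 after a transcription start. Exact matches on either strand were sought for GTAAACA, a forkhead core, for CACGTG, an E-box that forms the core of carbohydrate response elements, and for GGTCA, the half-site of an estrogen response element. GTAAACA was present in 3.42% of all 35116 windows of the table, and among the members it lay in 1 of 2 TXNIP windows, 1 of 2 PIK3IP1 windows and the FOXO4 window. The TXNIP match lies at -124 to -118 from the start, and the 250 bases upstream, on the minus strand of chr1:145996580-145996829, are given first, with the match in capitals. The CCNG2 window held no GTAAACA but had CACGTG, in capitals, at -30 to -25, in the 250 upstream bases on the plus strand of chr4:77156957-77157206. The FOXO4 match lies at +24 to +30 (plus strand, chrX:71095864-71095890), and the PIK3IP1 match lies at +17 to +23 on the opposite strand (gene on the minus strand, chr22:31292456-31292482). These 2 are given with 10 bases on each side, and the capitals again mark the match.
TXNIP upstream: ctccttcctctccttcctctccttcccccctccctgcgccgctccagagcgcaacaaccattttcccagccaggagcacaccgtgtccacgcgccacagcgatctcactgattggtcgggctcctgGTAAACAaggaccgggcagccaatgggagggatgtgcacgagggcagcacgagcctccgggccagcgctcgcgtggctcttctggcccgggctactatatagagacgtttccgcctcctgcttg
CCNG2 upstream: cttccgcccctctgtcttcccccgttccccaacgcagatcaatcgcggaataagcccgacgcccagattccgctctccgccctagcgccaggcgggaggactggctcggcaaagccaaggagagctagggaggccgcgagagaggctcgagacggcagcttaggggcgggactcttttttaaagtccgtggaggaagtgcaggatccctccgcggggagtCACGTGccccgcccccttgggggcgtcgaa
FOXO4 match: ccggcgagtgGTAAACAgagacgtcag
PIK3IP1 match: aaagagaggcTGTTTACcagaacagca

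Exact CACGTG was found in 7.26% of all windows and, among the members, in CCNG2 alone. Variants of these letters were not sought, so a window without CACGTG, such as that of TXNIP, may still hold a carbohydrate response element. The match in CCNG2 does not by itself make such an element. GGTCA was found in 37.4% of all windows, and among the members in the windows of FOXO1 and FOXO4, in both overlapping windows of PIK3IP1, which share 1 site, in 1 of 4 of FOXO3 and in 1 of 3 of SESN1. The 4 windows of SESN3, BCL6 and the second TXNIP start held none of the 3 motifs. These matches describe letters in the windows and not binding, which was not measured.

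Estradiol lowered 5 of the 8 tested members in control cells and 6 of 8 in HOXB13 cells, and raised none; the members were chosen with such results known, so the shares of all tested genes are given as description. In control cells FOXO1, FOXO4, CCNG2, PIK3IP1 and TXNIP fell (edgeR quasi-likelihood F test, adjusted by Benjamini-Hochberg over 14799 genes, threshold 0.05), where 6.72% of all tested genes fell. In HOXB13 cells these 5 genes and BCL6 fell, where 6.38% of all tested genes fell. The median log2 fold change of the 8 members was -0.73 in control and -0.67 in HOXB13 cells, against -0.01 for all tested genes in both. With the replicate number as a block, FOXO3 joined in both genotypes and BCL6 in control cells, which made 7 of 8 in each, where 16.5% and 15% of all tested genes fell. With both genotypes averaged, 7 of 8 fell, where 13.5% of all tested genes fell, and SESN1 (-0.12, adjusted p = 0.446) was the exception. The averaged and the separate comparisons share their libraries. The plot of member levels by library shows a split by treatment for most members. FOXO3 overlapped in control cells and SESN1 in HOXB13 cells, and SESN3 was near the limit of detection.

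**Figure D1:**
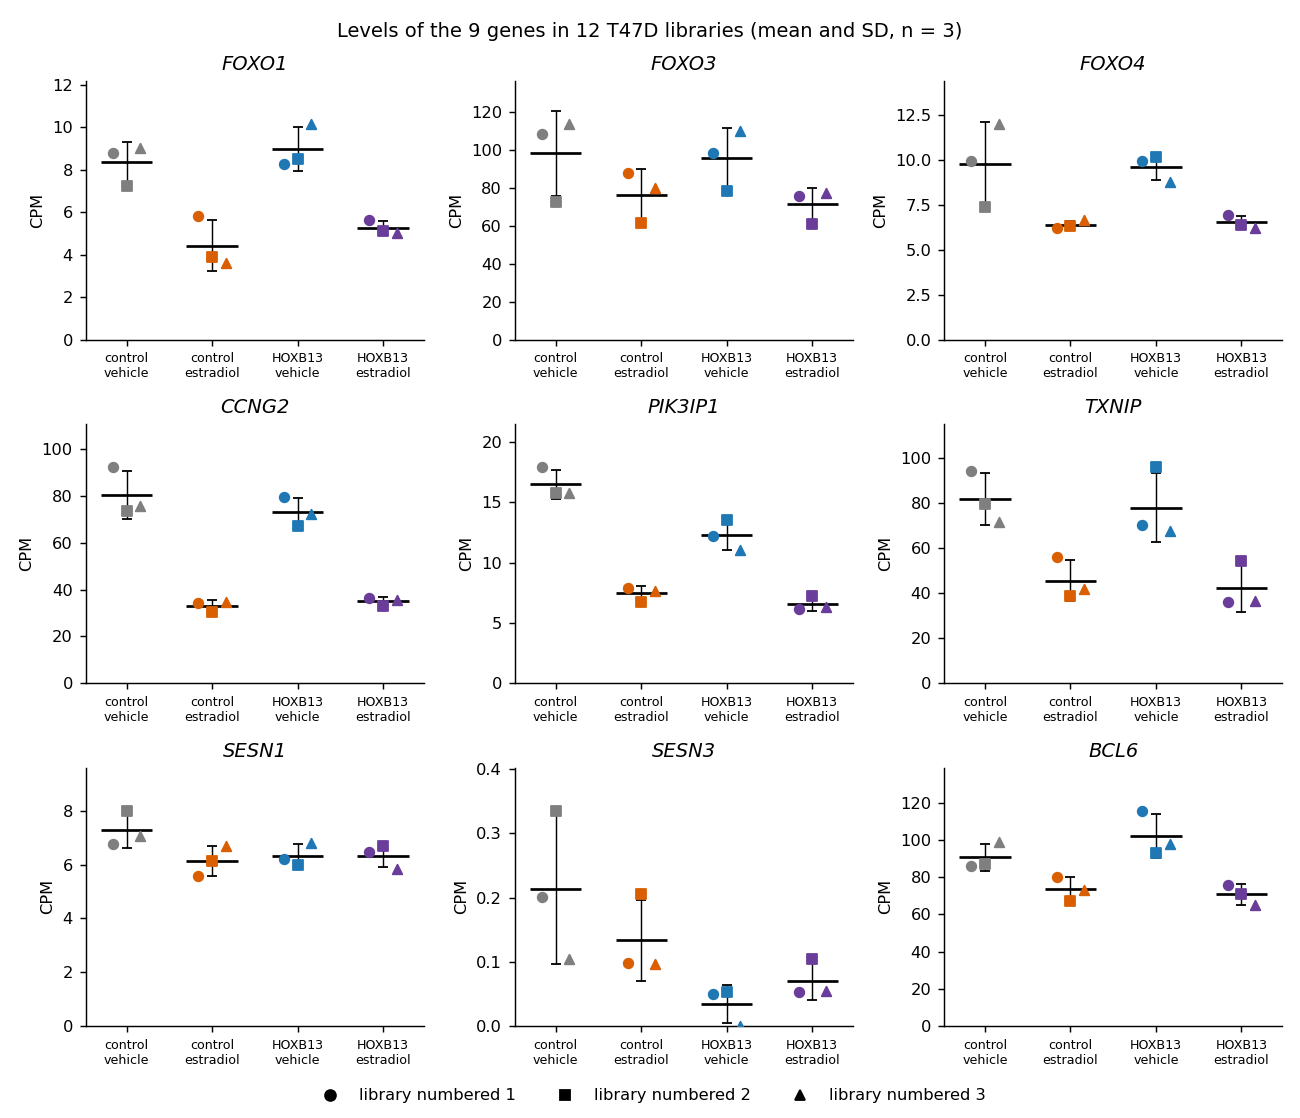
Levels of the 8 tested members and SESN3 in CPM (vertical axis, scaled separately for each gene) in the 12 libraries, by group (horizontal axis), with points for libraries and bars for the group mean and SD. The 3 estradiol libraries of CCNG2 lie below the 3 vehicle libraries in both genotypes, while those of SESN1 overlap with vehicle in HOXB13 cells. Symbols mark the replicate number.

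FOXO1, a forkhead factor with a role in metabolic and hormone-responsive gene control, had 8.77, 7.23 and 9.03 CPM in the control vehicle libraries and 5.81, 3.87 and 3.59 in control estradiol. The HOXB13 cells had 8.29, 8.505 and 10.1 CPM in vehicle and 5.63, 5.11 and 5.04 in estradiol. Every estradiol library lay below every vehicle library of either genotype. FOXO1 fell 1.88-fold in control cells (log2 fold change -0.91, SE 0.20, adjusted p = 0.00538) and 1.71-fold in HOXB13 cells (-0.77, SE 0.19, adjusted p = 0.0163). The call in HOXB13 cells was lost without HOXB13 vehicle library 3 (adjusted p = 0.0645), HOXB13 estradiol library 2 (0.0511) or HOXB13 estradiol library 3 (0.0621).

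FOXO3, the forkhead factor most often tied to cell cycle arrest and cell death genes, had 109, 72.5 and 114 CPM in control vehicle and 88.1, 61.4 and 79.7 in control estradiol. In HOXB13 cells the values were 98.6, 78.2 and 110 CPM in vehicle and 75.6, 61.0 and 77.2 in estradiol. In each of the 4 groups the library numbered 2 was the lowest, so the control groups overlapped, and the HOXB13 groups were separated by a narrow gap. The differences were -0.36 in control cells (SE 0.18, adjusted p = 0.218) and -0.42 in HOXB13 cells (SE 0.18, adjusted p = 0.157). With the replicate block both passed (adjusted p = 0.000900 and 0.000180), and equally numbered libraries were lower with estradiol in 3 of 3 pairs in each genotype. Without the 4 libraries numbered 2, FOXO3 also passed in control (-0.40, adjusted p = 0.00394) and HOXB13 cells (-0.44, adjusted p = 0.00212). Leaving out control vehicle library 2 alone gave -0.54 in control cells (adjusted p = 0.0337). FOXO3B, a near-identical copy that can share reads with FOXO3, held 2.43% to 4.88% of the counts of both, and adding it changed none of the FOXO3 calls.

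FOXO4, a further forkhead factor under AKT control, had 9.98, 7.38 and 12.006 CPM in control vehicle and 6.20, 6.35 and 6.64 in control estradiol. In HOXB13 cells it had 9.93, 10.2 and 8.79 CPM in vehicle and 6.96, 6.41 and 6.23 in estradiol. Vehicle and estradiol libraries did not overlap in either genotype. FOXO4 fell 1.53-fold in control cells (-0.61, SE 0.17, adjusted p = 0.0282) and 1.47-fold in HOXB13 cells (-0.56, SE 0.17, adjusted p = 0.0474). Both calls lay near the threshold. The call in control cells was lost when any library but control vehicle 2 was left out (adjusted p = 0.0732 to 0.135), and the one in HOXB13 cells when any of its 6 libraries was (0.0611 to 0.140). FOXO6, the remaining forkhead factor of the family, was not a member; its difference was -0.089 in control cells (adjusted p = 0.805) and -0.44 in HOXB13 cells (adjusted p = 0.142, or 0.0302 with the replicate block).

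CCNG2, an unconventional cyclin that rises in cells leaving the cycle, had 92.3, 73.5 and 75.9 CPM in control vehicle and 34.2, 30.3 and 34.5 in control estradiol. HOXB13 cells gave 79.7, 67.0 and 72.3 CPM in vehicle and 36.4, 33.1 and 35.5 in estradiol. The lowest vehicle library held more than the highest estradiol library in both genotypes, by a wide margin. CCNG2 had the largest change of the 8 members in both genotypes, falling 2.44-fold in control cells (-1.29, SE 0.12, adjusted p = 7.5e-06) and 2.08-fold in HOXB13 cells (-1.06, SE 0.12, adjusted p = 5.3e-05).

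PIK3IP1, a membrane protein that restrains the catalytic subunit of PI3K and so acts upstream of AKT, had 17.9, 15.8 and 15.8 CPM in control vehicle and 7.91, 6.76 and 7.66 in control estradiol. In HOXB13 cells it had 12.2, 13.5 and 11.04 CPM in vehicle and 6.11, 7.19 and 6.28 in estradiol. It fell 2.22-fold in control cells (-1.15, SE 0.14, adjusted p = 9.0e-05) and 1.88-fold in HOXB13 cells (-0.91, SE 0.14, adjusted p = 0.000805). An antisense RNA, PIK3IP1-AS1, overlaps the gene in GENCODE 29, and the strand setting of the counting is not given in the sources used here, so reads of the pair cannot be told apart. The same holds for antisense RNAs that overlap SESN1, SESN3 and BCL6 and for the opposite-strand noncoding RNA AC092674.1 over CCNG2. LINC00598 overlaps FOXO1 on the same strand, where strand would not separate their reads.

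TXNIP, an arrestin-like protein that binds thioredoxin and limits glucose uptake, had 94.4, 79.8 and 71.7 CPM in control vehicle and 55.9, 38.7 and 41.9 in control estradiol. HOXB13 cells gave 70.4, 95.9 and 67.8 CPM in vehicle and 36.0, 54.4 and 36.3 in estradiol. No estradiol library reached a vehicle library. TXNIP fell 1.80-fold in control cells (-0.85, SE 0.19, adjusted p = 0.00788) and 1.85-fold in HOXB13 cells (-0.89, SE 0.19, adjusted p = 0.00715).

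BCL6, a zinc finger repressor that holds back cell cycle and differentiation genes and can also act as an oncogene, had 85.9, 87.2 and 98.8 CPM in control vehicle and 80.1, 67.4 and 73.0 in control estradiol. Values in HOXB13 cells were 116, 93.2 and 98.0 CPM in vehicle and 76.1, 71.2 and 65.1 in estradiol. The estradiol libraries lay below the vehicle libraries in both genotypes, with a narrow gap in control cells. BCL6 fell 1.45-fold in HOXB13 cells (-0.53, SE 0.11, adjusted p = 0.00620). In control cells the difference was -0.30 (SE 0.11, adjusted p = 0.0914), and it passed with the replicate block (adjusted p = 0.00537). The difference between the 2 responses was not past the threshold (-0.23, 95% interval -0.57 to 0.11).

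SESN1, a stress-induced sestrin that lowers mTORC1 activity through the GATOR complexes, had 6.77, 7.999 and 7.05 CPM in control vehicle and 5.57, 6.14 and 6.69 in control estradiol. In HOXB13 cells it had 6.20, 5.97 and 6.80 CPM in vehicle and 6.48, 6.67 and 5.85 in estradiol. The HOXB13 groups overlapped fully and the control groups were barely apart. The estradiol differences were -0.25 in control cells (95% interval -0.57 to 0.082, adjusted p = 0.325) and 0.00 in HOXB13 cells (-0.33 to 0.33, adjusted p = 0.994). SESN2, a further sestrin that was not a member, differed by -0.21 (adjusted p = 0.270) and -0.13 (adjusted p = 0.534).

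SESN3, the sestrin most directly linked to FOXO factors, was near the limit of detection and failed the count filter. It had 4, 7 and 2 counts in control vehicle, 2, 4 and 2 in control estradiol, 1, 1 and 0 in HOXB13 vehicle and 1, 2 and 1 in HOXB13 estradiol libraries. The 6 control libraries held 21 counts in all (95% exact interval 13.0 to 32.1) and the 6 HOXB13 libraries 6 (2.20 to 13.1). Scaled for depth, the control to HOXB13 ratio was 3.33 (95% interval 1.30 to 10.1). These intervals cover counting error only, and the difference between the genotypes was not tested across libraries.

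**Figure D2:**
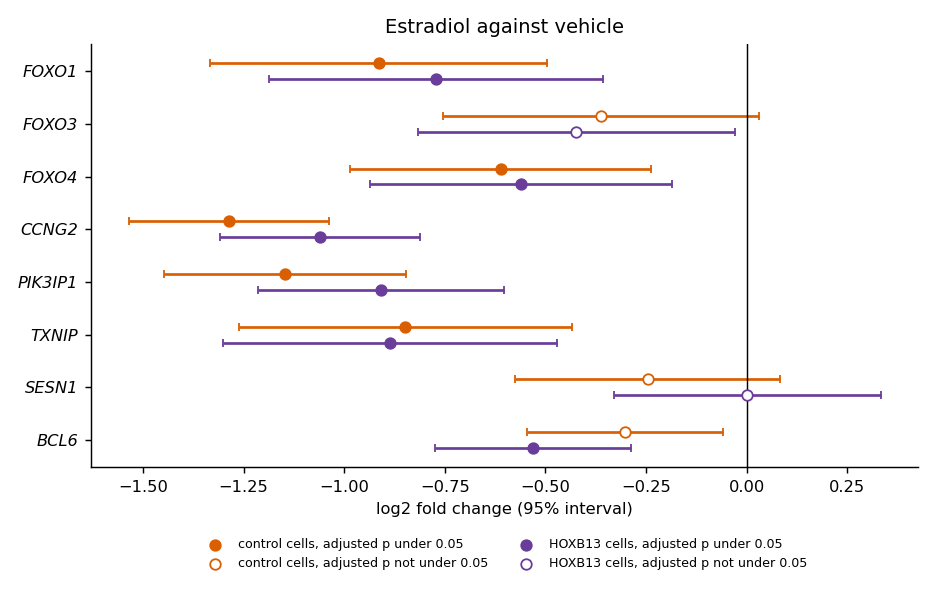
Log2 fold change of estradiol against vehicle (horizontal axis) with its 95% interval for the 8 tested members, in control and in HOXB13 cells, with filled symbols for an adjusted p under 0.05. CCNG2 at -1.29 and -1.06 and PIK3IP1 at -1.15 and -0.91 lie farthest to the left, and SESN1 spans 0 in both genotypes.

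In the order of the 4 group means, both vehicle groups stood above both estradiol groups for every tested member but SESN1. For FOXO1, FOXO4, CCNG2, TXNIP and BCL6 only the step from the lower vehicle group to the higher estradiol group was free of overlap. Their neighbours of the same treatment overlapped, which with 3 libraries a group does not show that they are equal. PIK3IP1 alone had a further step, from control vehicle to HOXB13 vehicle. FOXO3 showed an overlap at every step. SESN1 had a step only from control vehicle, its highest group, to HOXB13 estradiol, the next in mean. Its HOXB13 vehicle libraries overlapped with control vehicle. The libraries of each genotype's 2 treatments did not overlap, with estradiol lower, for 7 of 8 members in HOXB13 cells, where 14.7% of all tested genes did so, and for 7 of 8 in control cells, where 14.9% did.

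No tested member passed the threshold for HOXB13 in either treatment. In vehicle the log2 fold changes against control cells ran from -0.43 to 0.18 and edgeR called 0 of 8, where 0.0203% of all tested genes were called. Of the 8, 1 (PIK3IP1) had an unadjusted p under 0.05, beside 3.78% of all tested genes, and DESeq2 and limma-voom called 0 each. With the replicate block 2 had an unadjusted p under 0.05 and 0 were called. In estradiol the log2 fold changes ran from -0.19 to 0.25 and 0 of 8 were called, where 0.0135% of all tested genes were. An unadjusted p under 0.05 was found for 0 members, beside 3.30% of all tested genes. DESeq2 and limma-voom again called 0 each. The 95% intervals of the 8 members stayed within -0.72 to 0.51 in vehicle and -0.52 to 0.68 in estradiol.

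PIK3IP1 had the largest difference between the genotypes in vehicle. Its HOXB13 vehicle libraries (11.04 to 13.5 CPM) all lay below its control vehicle libraries (15.8 to 17.9 CPM), a pattern that 3.54% of all tested genes showed in that direction. The difference was -0.43 (SE 0.14, 95% interval -0.72 to -0.14), lower in 3 of 3 equally numbered pairs, with an unadjusted edgeR p of 0.00719 and an adjusted p of 0.982. It did not pass with the replicate block (adjusted p = 0.213) or with DESeq2 (0.481). In estradiol the difference was -0.19 (95% interval -0.50 to 0.12, adjusted p = 0.999) and the groups overlapped. Averaged over both treatments it was -0.31 (SE 0.10, adjusted p = 0.460), where 0.149% of all tested genes were called.

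**Figure D3:**
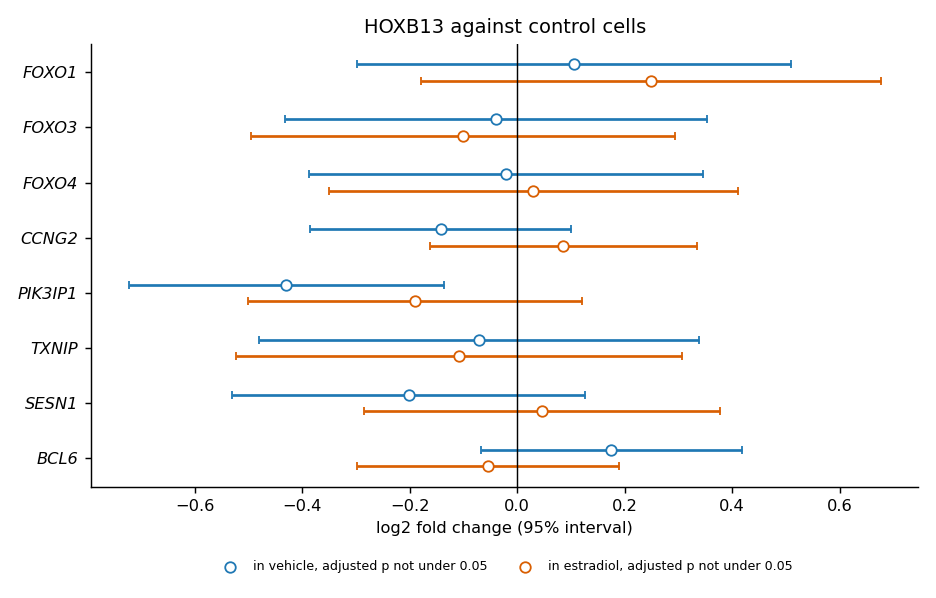
Log2 fold change of HOXB13 against control cells (horizontal axis) with its 95% interval for the 8 tested members, in vehicle and in estradiol. PIK3IP1 in vehicle, at -0.43, is the single value whose interval lies off 0, and none of the values had an adjusted p under 0.05.

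The estradiol responses of the members did not differ between the genotypes past the threshold. The difference of the 2 responses, HOXB13 minus control, ran from -0.23 for BCL6 to 0.25 for SESN1, and edgeR called 0 of 8 members, with 0 at an unadjusted p under 0.05. Of all tested genes 0% were called, 219 had an unadjusted p under 0.05, and DESeq2 and limma-voom also called 0. CCNG2 (0.23, 95% interval -0.12 to 0.57) and PIK3IP1 (0.24, -0.19 to 0.67) had positive differences, meaning a smaller fall in HOXB13 cells, within their error. TXNIP (-0.038, -0.62 to 0.54), FOXO3 (-0.062, -0.62 to 0.49) and FOXO4 (0.051, -0.48 to 0.58) were nearest 0. The interval of FOXO1 was the widest (0.14, -0.45 to 0.73).

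Libraries of 1 group also varied together in some members. Over the 12 libraries, the deviations of PIK3IP1 and TXNIP from their group means had a Pearson r of 0.899, while the other 27 of the 28 pairs of members ran from -0.479 to 0.671. Both genes were highest in library 1 of the 2 control groups and in library 2 of the 2 HOXB13 groups. This is a description, since libraries with equal numbers are not independent. CCNG2, like FOXO3, was lowest in library 2 of all 4 groups.

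**Figure D4:**
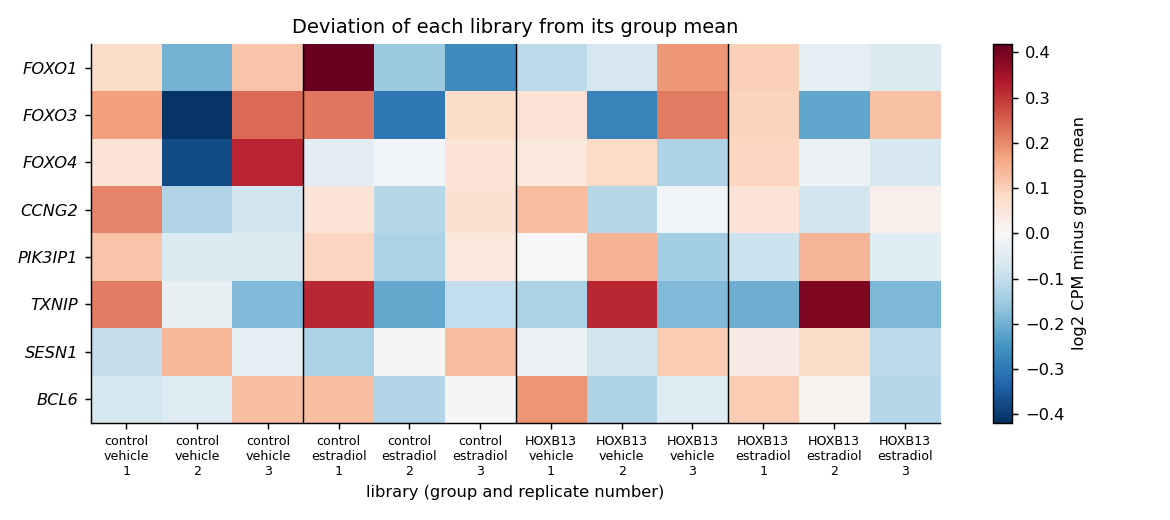
Deviation of each of the 12 libraries (columns, by group and replicate number) from its group mean in log2 CPM (colour scale) for the 8 tested members (one line of cells each). PIK3IP1 and TXNIP share their positive cells in control library 1 and HOXB13 library 2 of both treatments, and FOXO3 and CCNG2 are negative in library 2 of all 4 groups.

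The genes whose levels over the 12 libraries were most like those of each member were also named, by Pearson r of log2 CPM. CCNG2 was nearest to IL1R1 (0.996), an interleukin receptor, FBXO32 (0.993), a ubiquitin ligase subunit and textbook FOXO target, and ST6GAL1 (0.990), a sialyltransferase. PIK3IP1 was nearest to EGLN3 (0.991), an oxygen-sensing hydroxylase, CRISPLD1 (0.986) and CDC42EP4 (0.981). TXNIP was close to TOM1L2 (0.968) and SGSM2 (0.964). These values follow the split between vehicle and estradiol, which all 12 libraries share.

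Among the FOXO factors, FOXO1 was nearest to ATP8A1 (0.967), GRHL1 (0.959), an epithelial transcription factor, and SPTLC2 (0.957). FOXO3 was nearest to ANKRD50 (0.979), MAGI3 (0.979) and BRPF3 (0.977). FOXO4 was nearest to TBC1D8 (0.947), FBXL19 (0.940) and SNX9 (0.940). BCL6 was nearest to PLXND1 (0.975), GATA3 (0.972), the luminal transcription factor, and DTX2 (0.968). SESN1 had no close match, with RP11-399D6.2 (0.840), PLK1S1 (0.831) and CTB-113D17.1 (0.808) at the top.

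Other genes of the same pathways were counted in 7 lists, which left out the 9 members and held 207 tested genes, 15 of them in more than 1 list. The lists were also chosen with earlier results of these data known, so their shares beside those of all tested genes are description. Textbook FOXO target genes fell more often than they rose. Of 38 tested, 10 fell and 0 rose with estradiol in control cells, and 9 fell and 0 rose in HOXB13 cells, shares that fell of 26.3% and 23.7%, with medians of -0.22 and -0.20. In all tested genes 8.65% rose in control and 7.22% in HOXB13 cells, beside the shares that fell given above. FBXO32, which marks proteins for degradation in atrophy, fell from 251 ± 36.3 to 76.9 ± 7.25 CPM (SD, n = 3) in control cells (-1.71) and by 1.55 on the log2 scale in HOXB13 cells. CITED2, a transcriptional coregulator, fell by 1.11 and 1.16, ERBB3, a growth factor receptor, by 0.82 and 0.67, and HBP1, a repressor of cell cycle genes, by 0.75 and 0.67. The count that fell in control cells was 5 without control estradiol library 1 or library 3. In HOXB13 cells it was 6 to 8 with 1 library left out. With the replicate block 16 fell and 2 rose in control cells and 13 fell and 2 rose in HOXB13 cells. That block also raised the share of all tested genes that fell, to 16.5% in control and 15% in HOXB13 cells. The cell cycle inhibitor CDKN1B differed by -0.22 in control cells (adjusted p = 0.230) and CDKN1A by 0.27 (adjusted p = 0.185).

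Upstream of the FOXO factors, 3 of 37 tested PI3K and AKT pathway genes rose (8.11%) and 2 fell (5.41%) in each genotype, with medians of -0.06 and -0.07. These shares are near those of all tested genes. SGK3, a kinase that can phosphorylate FOXO factors as AKT does, rose from 4.57 ± 0.039 to 14.4 ± 1.61 CPM in control cells (1.65) and by 1.45 in HOXB13 cells. IRS1, an insulin receptor adaptor, rose by 0.63 and 0.49, and RHEB, the GTPase that activates mTORC1, by 0.53 and 0.50. The RHEB call was lost in control cells without any library but control vehicle 2 and control estradiol 1 (adjusted p = 0.0514 to 0.0786), and in HOXB13 cells without any but HOXB13 vehicle 2 (0.0671 to 0.109). The IRS1 call in HOXB13 cells was lost without any library but HOXB13 vehicle 3 and HOXB13 estradiol 2 (0.0941 to 0.151). PIK3R3, a regulatory subunit of PI3K, fell by 0.83 and 0.69. AKT1, the kinase itself, differed by -0.09 in control cells, which was not past the threshold. With the replicate block, under which 16.5% and 15% of all tested genes fell, 6 rose and 10 fell in control cells. In HOXB13 cells 6 rose and 9 fell with it. Without HOXB13 vehicle library 1, HOXB13 estradiol library 1 or HOXB13 estradiol library 3, 1 rose and 1 fell in HOXB13 cells.

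Of 30 tested genes for proteins that modify or bind FOXO factors, 4 rose (13.3%) and 1 fell (3.33%) in each genotype, beside 8.65% and 6.72% of all tested genes in control cells and 7.22% and 6.38% in HOXB13 cells. CDK2, a cyclin-dependent kinase that can phosphorylate FOXO1, rose by 0.98 in control and 0.93 in HOXB13 cells. SFN and YWHAH, 14-3-3 proteins of the type that hold FOXO factors in the cytoplasm, rose by 0.71 and 0.44 in control cells and by 0.57 and 0.45 in HOXB13 cells, where SFN was lost without HOXB13 vehicle library 1 (adjusted p = 0.0517). The kinase MAPK9 rose by 0.51 and 0.61. SMAD3, a FOXO partner in TGF-beta signalling, fell by 0.53 and 0.80. With the block 8 of the 30 rose and 4 fell in each genotype, where 16.5% and 15% of all tested genes fell.

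Of 52 tested quiescence and antiproliferative genes beyond the members, 17 fell (32.7%) and 3 rose (5.77%) in control cells. In HOXB13 cells 20 fell (38.5%) and 4 rose (7.69%). The medians were -0.24 in control and -0.37 in HOXB13 cells. Of all tested genes 6.72% fell and 8.65% rose in control cells, and 6.38% fell and 7.22% rose in HOXB13 cells. NDRG1, a growth-restraining stress protein, fell by 1.95 and 1.96, and DDIT4, an inhibitor of mTORC1, by 1.45 and 1.36. NR2F1, an orphan nuclear receptor tied to dormancy, fell by 1.06 and 1.09, and HES1, a Notch-driven repressor, by 1.15 and 0.94. TP53INP1, a p53-induced gene, fell by 1.26 in control cells and differed by -0.90 in HOXB13 cells (adjusted p = 0.123). Its call in control cells was lost without control vehicle library 1 or 3 or control estradiol library 1 or 2 (adjusted p = 0.0546 to 0.185). The list also held genes that rose. RBL1, the p107 pocket protein, rose by 0.85 and 0.94, CDKN2C, an inhibitor of CDK4 and CDK6, by 0.80 and 0.56, and LIN52, a DREAM complex subunit, by 0.50 and 0.62, while LIN9, of the same complex, rose by 0.68 in HOXB13 cells. In HOXB13 cells the CDKN2C call was lost without any library but HOXB13 vehicle 2 (adjusted p = 0.0550 to 0.183), and the LIN9 call without HOXB13 vehicle library 1 or HOXB13 estradiol library 2 or 3 (0.0673 to 0.115). LIN52 was lost in control cells without control estradiol library 3 (0.0629). With the block 7 rose and 25 fell in control cells, where 16.5% of all tested genes fell. In HOXB13 cells it gave 5 that rose and 27 that fell, where 15% of all tested genes fell. The number of list genes that rose in HOXB13 cells was 2 without HOXB13 vehicle library 1, HOXB13 estradiol library 2 or HOXB13 estradiol library 3. Across fits with 1 library left out, 15 to 18 list genes fell in control and 14 to 17 in HOXB13 cells.

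Smaller lists were counted around TXNIP, the sestrins and BCL6. Of 15 genes for TXNIP partners, arrestin-like proteins and related proteins, 2 fell in control cells (13.3%) and 1 in HOXB13 cells (6.67%), and 0 rose. Of all tested genes 6.72% and 6.38% fell. DDIT4, also counted in the quiescence list, fell in both genotypes, and TXNRD1, thioredoxin reductase, fell by 0.50 in control cells. The TXNRD1 call was lost without control vehicle library 1 (adjusted p = 0.0558). Of 33 sestrin, GATOR and mTORC1-sensing genes, 1 rose (3.03%) and 1 fell (3.03%) in each genotype. These shares lay below those of all tested genes, of which 8.65% and 7.22% rose in control and HOXB13 cells. SEH1L, a GATOR and nuclear pore protein, rose by 0.65 and 0.58, and RRAGB, a Rag GTPase, fell by 0.40 and 0.41. The RRAGB call was lost in control cells without any library but control vehicle 2 (adjusted p = 0.0637 to 0.193), and in HOXB13 cells without any but HOXB13 vehicle 3 and HOXB13 estradiol 2 (0.103 to 0.184). Of 17 BCL6 corepressors and relatives, 3 fell in control cells (17.6%) and 4 in HOXB13 cells (23.5%), and 0 rose. HDAC9, a class II histone deacetylase, fell from 15.7 ± 4.08 to 4.46 ± 0.710 CPM in control cells (-1.81) and by 1.53 in HOXB13 cells. Its relative HDAC5 fell by 0.45 and 0.42, and MTA3, a corepressor subunit, by 0.40 and 0.43. The MTA3 call was lost without control vehicle library 3 or control estradiol library 3 (adjusted p = 0.0635 and 0.0756) or HOXB13 vehicle library 1 (0.0506), and the HDAC5 call in HOXB13 cells without HOXB13 vehicle library 1 or HOXB13 estradiol library 3 (0.0906 and 0.0588). The number that fell in HOXB13 cells was 1 without HOXB13 vehicle library 1 and 2 without HOXB13 estradiol library 3, and in control cells it was 5 without control vehicle library 2. With the block, 1 of these 17 rose in each genotype. It gave 6 that fell in control and 5 in HOXB13 cells, where 16.5% and 15% of all tested genes fell.

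Proliferation genes moved the other way. All 20 tested markers of proliferation rose with estradiol in each genotype, with medians of 1.04 and 0.95, CCNE2 by 1.54 and 1.32 and RRM2 by 1.54 and 1.38. Of all tested genes 8.65% rose in control and 7.22% in HOXB13 cells. With 1 library left out, 18 to 20 markers rose in control and 15 to 20 in HOXB13 cells. The summed level of the 20 markers was 1393 to 1819 CPM in control vehicle, 3210 to 3275 in control estradiol, 1626 to 1796 in HOXB13 vehicle and 3049 to 3359 in HOXB13 estradiol libraries. The part of this shift in the changes of the members was not tested. In bulk RNA, fewer cells of a type and less RNA per cell cannot be told apart.

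Some markers of luminal epithelium also passed the threshold with estradiol. Of 9 tested epithelial and luminal markers, 1 rose and 1 fell in control cells (11.1% each), beside 8.65% and 6.72% of all tested genes. In HOXB13 cells 0 rose and 3 fell (33.3%), beside 7.22% and 6.38% of all tested genes. CDH1, the epithelial cadherin, fell by 0.44 and 0.56. GATA3 fell by 0.43 in HOXB13 cells and differed by -0.30 in control cells (adjusted p = 0.0574), and FOXA1, a pioneer factor of the estrogen receptor, fell by 0.38 in HOXB13 cells and differed by -0.32 in control cells (adjusted p = 0.0669). PGR, the progesterone receptor and a textbook estrogen target, rose by 0.91 in control cells and differed by 0.65 in HOXB13 cells (adjusted p = 0.0687). The FOXA1 call was lost without any HOXB13 library but HOXB13 vehicle 2 (adjusted p = 0.0686 to 0.155), the GATA3 call without HOXB13 vehicle library 1 (0.0596), the PGR call without control estradiol library 1 (0.0515) and the CDH1 call in control cells without control vehicle library 1 or control estradiol library 2 (0.0550 and 0.0698). The part of these shifts in the changes of the members was not tested.

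**Figure D5:**
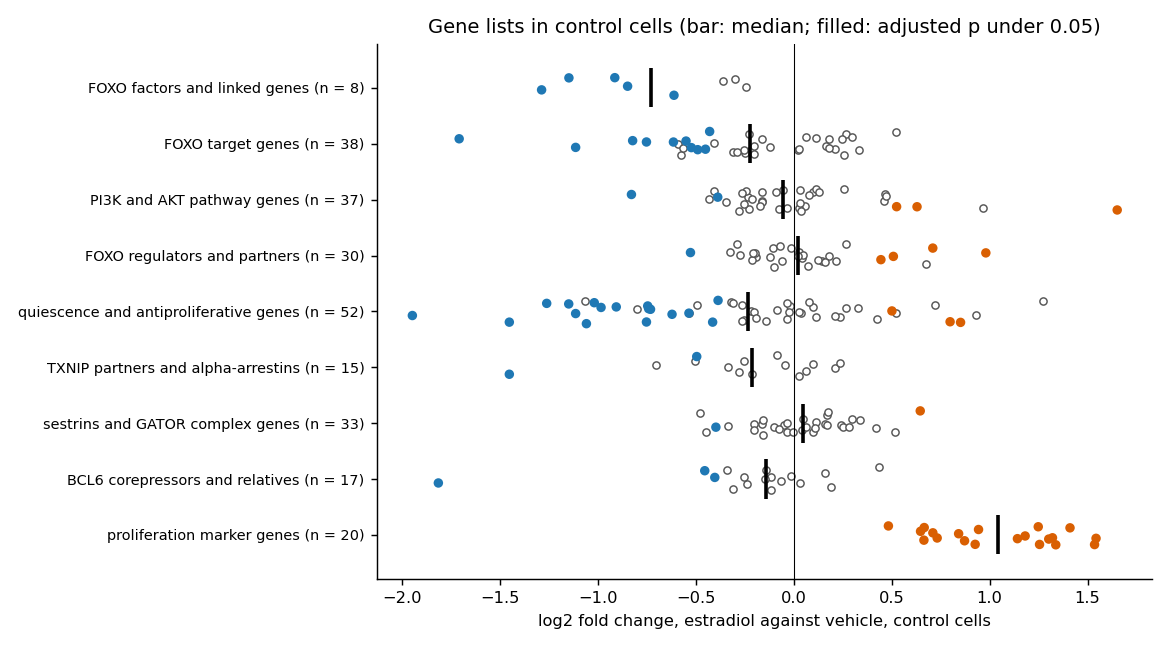
Log2 fold change of estradiol against vehicle in control cells (horizontal axis) for each tested member and list gene (points, filled at an adjusted p under 0.05), with a bar at the median of each list. The median of the members (-0.73) lies farthest below 0 and that of the proliferation markers (1.04) farthest above.

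HOXB13 left the lists without a call in either treatment by edgeR without the replicate block. Over the 244 tested genes of the lists with the cell type markers, 0 were called in vehicle, where 12 had an unadjusted p under 0.05 (4.92%, against 3.78% of all tested genes), and 0 in estradiol, where 9 did (3.69% against 3.30%). DESeq2 called ACTA2, a marker of smooth muscle, in vehicle and 0 in estradiol, and limma-voom called 0 in each. With the replicate block NR2F1 and ACTA2 were called higher in HOXB13 cells in vehicle, and CDKN1A lower in estradiol. CDKN1A was at 72.2 ± 4.52 CPM in HOXB13 estradiol and 96.8 ± 4.73 CPM in control estradiol libraries. These 3 genes were named here after their values were seen.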

How the data were processed

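RNA was sequenced from 12 T47D libraries. The authors deposited 1 table of raw counts by gene symbol, made with FastQC, STAR, Picard and HTSeq on GRCh37/hg19, per the submitters' processing notes. For versions, annotation release and strand: not given in the sources used here. Groups came from the sample titles and treatments. Genes were filtered by group (filterByExpr, minimum count 10, total 15), libraries were TMM-scaled (factors 0.974 to 1.04), and CPM used effective library sizes, with a prior count of 2 for log2 values. A group-means fit over 12 libraries (edgeR 4.0.16, R 4.3.3, robust quasi-likelihood F test) was adjusted by Benjamini-Hochberg at 0.05 over 14799 genes. With 3 against 3 libraries, exact permutation of single values cannot pass this threshold and was not used. DESeq2 1.42.0, limma-voom (limma 3.58.1), other scalings, no filter, fits on 2 groups and left-out libraries were alternatives. The scripts were tested on simulated data.

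The members and lists were chosen with earlier results of these data known. List genes named were up to 4 per direction by size of change, past the threshold and at a mean log2 CPM of 1 or more; likeness names the 3 highest r, of which 1 for TXNIP is not reported here. Libraries of equal number deviated together from their group means, with r of 0.123 to 0.457 across genes, all above the minimum of 0.1 set for pairing, so the number was used as a block beside the results. What the numbers stand for is not labelled, and libraries numbered 2 carried much of this correlation. Counting error alone underlies the intervals of SESN3.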

Additional observations from a re-analysis of the deposited data

How the results depend on the processing

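Across left-out libraries the number of members that fell with estradiol was 4 to 6 in control cells, 4 to 5 in HOXB13 cells and 6 to 7 for the averaged effect, and across the other alternatives it was 4 to 7, 5 to 7 and 7. Counts of 0 for HOXB13 and for the difference of responses stayed at 0 in these fits. The replicate block gave 7 members in each genotype, through FOXO3 and, in control cells, BCL6, and changed no other member's call. Of 431 single-member values under alternatives other than left-out libraries, 417 kept direction and side of the threshold, 5 lost and 6 gained the threshold and 3 changed sign. FOXO4 in HOXB13 cells lost its call without the filter (adjusted p = 0.0706), with limma-voom (0.0599), in a fit on 2 groups (0.0503) and without the 4 libraries numbered 2 (0.0757, chosen after seeing the data), and in control cells in a fit on 2 groups (0.0783). The averaged FOXO3 effect lost its call in 8 of 12 fits with 1 library left out (adjusted p = 0.0553 to 0.0971). Among 39 named list genes, 0 of 938 values changed sign and 71 lost the threshold. List counts moved by over 1.5 times mostly under the block, which gave 6 and 4 falling TXNIP-related genes, and 5 rising sestrin and GATOR genes with 3 and 2 falling, in control and HOXB13 cells. Under the block 16.5% of all tested genes fell in control and 15% in HOXB13 cells, and the share that rose is not reported here. The TXNIP-related count in control cells was 1 without control vehicle library 1 and 4 without control vehicle library 2. Without the libraries numbered 2, 6 PI3K and AKT genes rose and 6 fell in control cells, and 7 fell in HOXB13 cells, as did 7 BCL6-related genes. The cause was not tested.

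The changes of sign were all in members whose comparison had not passed. Without the libraries numbered 2, SESN1 with estradiol in HOXB13 cells was -0.070 and FOXO4 with averaged HOXB13 -0.092, and limma-voom gave FOXO4 0.010 for HOXB13 in vehicle. With 1 library left out, SESN1 with estradiol in HOXB13 cells ran from -0.036 to 0.057. HOXB13 in vehicle ran from -0.22 to 0.083 for FOXO3, -0.19 to 0.15 for FOXO4 and -0.25 to 0.044 for TXNIP. HOXB13 in estradiol ran from -0.24 to 0.013 for FOXO3, -0.017 to 0.063 for FOXO4, -0.33 to 0.066 for TXNIP, -0.020 to 0.11 for SESN1 and -0.11 to 0.011 for BCL6. The difference of responses ran from -0.20 to 0.12 for FOXO3, -0.11 to 0.23 for FOXO4 and -0.26 to 0.15 for TXNIP, and averaged HOXB13 from -0.078 to 0.092 for FOXO4 and -0.061 to 0.027 for CCNG2. Depth limits SESN3, at 0 to 7 counts a library.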
